A study of Arabidopsis thaliana with 12 samples.

Results

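*trnK-UUU* is the chloroplast gene for the lysine tRNA, and its intron holds the *matK* reading frame. The gene lies on the minus strand of the Arabidopsis chloroplast genome (TAIR10, Pltd:1717-4347), so its RNA is read from nt 4347 down to nt 1717. Its members here were the 77 of 555 segments of the precipitate table that lie on the minus strand and overlap the gene. They were 2 to 497 nt long, with a median of 14 nt. By the annotation the RNA of 2631 nt consists of exon 1 (Pltd:4311-4347, 37 nt), 740 nt of intron upstream of *matK* (Pltd:3571-4310), the *matK* frame of 1515 nt (Pltd:2056-3570), 304 nt of intron downstream of *matK* (Pltd:1752-2055) and exon 2 (Pltd:1717-1751, 35 nt).

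The *trnK* intron is a group II intron, a class of self-folding RNA derived from bacterial ribozymes, which is removed through a branched lariat. A maturase is a protein that binds such an intron and helps it to reach the fold in which it can be spliced, and MatK is the maturase made from the *matK* frame. Splicing of *trnK* joins the exons of the tRNA and releases the intron with the whole *matK* frame inside it.

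RNA was recovered with anti-YFP beads from 10-day-old seedlings that expressed *At*MKIP1-YFP in the *mkip1-2* mutant background, or *At*BE3-YFP in the wild-type Col-0 background as the control bait. *At*MKIP1 is a homologue of starch-branching enzymes that was named as an interactor of MatK, and *At*BE3 is a starch-branching enzyme. Both transgenes were driven by the constitutive *UBQ10* promoter. The lines differ in genetic background as well as in bait. There were 3 pools of seedlings per line, each of 10 g, and an input library was made from the same kind of extract, which gives 12 libraries. The precipitates held 119799 to 319005 deduplicated reads mapped to the chloroplast genome. The inputs held 2213500 to 2868106 mapped reads, a count that is not labelled as deduplicated. Only chloroplast reads were counted, so the mRNA of the baits themselves gives no check of the labels.

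The stretches of the RNA that the results turn on are shown 5′ to 3′ as the strand of the RNA, written as DNA from the RefSeq chloroplast sequence used by TAIR10. The first and the last line hold the splice sites, with exon bases in capitals. The *TTT* in the last bases of exon 1 (nt 33 to 35) is the anticodon, and the intron opens with gtgcg, the usual start of a group II intron. The *matK* start line has the start codon in capitals. The other lines are the runs of at least 2 adjoining segments with a log2 fold change over 3, a rule chosen after the values were seen. In these the capitals mark the segment with the largest log2 fold change of the run.
Exon 1 and intron start (Pltd:4298-4347): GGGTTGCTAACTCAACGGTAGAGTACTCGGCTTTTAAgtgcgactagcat
Upstream run 1 (Pltd:3879-3892): taactagtccATTT
Upstream run 2 (Pltd:3773-3839): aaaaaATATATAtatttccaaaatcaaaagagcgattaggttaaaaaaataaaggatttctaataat
Upstream run 3 (Pltd:3605-3677): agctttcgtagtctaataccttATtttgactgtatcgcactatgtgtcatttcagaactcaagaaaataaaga
*matK* start (Pltd:3565-3604): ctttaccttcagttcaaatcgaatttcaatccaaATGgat
Run in *matK* (Pltd:3506-3564): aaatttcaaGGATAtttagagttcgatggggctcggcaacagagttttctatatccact
Downstream run 1 (Pltd:1884-1957): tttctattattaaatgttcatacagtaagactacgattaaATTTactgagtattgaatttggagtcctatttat
Intron end, with downstream run 2 in its first bases (taacaaggaga, Pltd:1765-1775), and exon 2 (Pltd:1717-1775): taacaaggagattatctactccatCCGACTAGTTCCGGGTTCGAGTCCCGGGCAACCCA

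The runs were rich in A and T, as is the whole RNA. Their GC content was 17.9% in upstream run 2 and 32.9% in upstream run 3, and 28.5% over the 298 nt of all 6 runs, against 31.6% for the whole RNA and 36.3% for the chloroplast genome. The exons were richer in GC, with 45.9% in exon 1 and 65.7% in exon 2.

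Nearly the whole RNA was more abundant in precipitates of *At*MKIP1-YFP than of *At*BE3-YFP. Of the 77 members, 76 had enough counts to be tested, all with log2 fold changes above 0, and 72 were higher at an adjusted p under 0.01 in edgeR's quasi-likelihood test across 553 segments. Over all segments tested, 72.3% were called higher, 84 segments were lower, and the median log2 fold change was 2.06, against 2.77 for the members. The segments do not sample the chloroplast genome evenly, since most loci with introns listed as MatK targets were split finely. The intron of *trnA-UGC* held 63 segments and that of *trnI-GAU* 47, against 15 for the 23S rRNA, 8 for *psbA* and 1 for *rbcL*. Of the members 55 were called and over 4-fold higher, against 50.3% of all segments. In 75 of the 76 tested members all *At*MKIP1-YFP libraries lay above all *At*BE3-YFP libraries in counts per 1000000 mapped reads (CPM), against 74.5% of all segments. The borders of the segments had been set on the contrast between the baits, so the p-values of segments come from a contrast that also shaped them. A read counts in every segment it overlaps, and neighbouring segments are therefore not independent.

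The count of higher members depended on the scaling of the libraries. The main scaling used the mapped reads and left the median of all segments at 2.06, whereas TMM, which sets the bulk of the segments to no change, moved this median to -0.08. With TMM 29 members were higher and 8 lower, and 21 of the 76 had a log2 fold change below 0, of which 15 were in the *matK* frame. When summed counts served as library sizes, 2 members fell below 0 and neither was called. Scaled on the segments outside MatK target loci, all 76 were called higher, with a median log2 fold change of 3.38. Where it is given below, the test of a segment against the mean of its own RNA does not depend on library size.

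**Figure D1:**
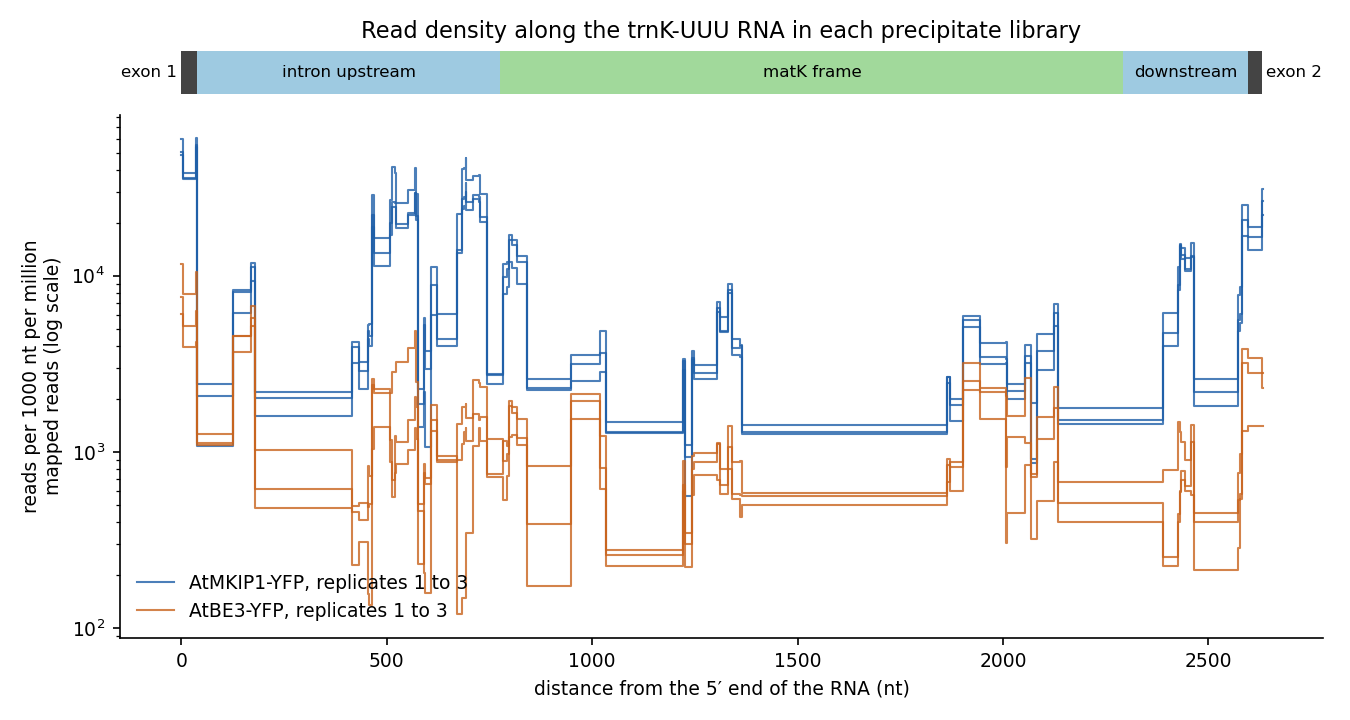
Read density of each precipitate library (reads per 1000 nt per 1000000 mapped reads, log scale) against the distance from the 5′ end of the *trnK-UUU* RNA, with 1 line per library and the parts of the RNA drawn above. The *At*MKIP1-YFP libraries ran above the *At*BE3-YFP libraries along most of the RNA, with their highest levels in exon 1, in 2 stretches of the upstream intron and in exon 2.

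Along the RNA the excess of *At*MKIP1-YFP was uneven, with the part upstream of *matK*, the part downstream of it and both exons above the *matK* frame itself. To compare the parts, the count of each segment was divided by its length plus 38 nt, which estimates how many reads begin per nt when reads of 39 nt run evenly over the borders. This read density is given per 1000 nt and 1000000 mapped reads, as the mean over the nucleotides of a part.

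Exon 1, the 5′ portion of the tRNA, had read densities of 41340, 37884 and 37472 in the *At*MKIP1-YFP replicates 1, 2 and 3, and of 4107, 5415 and 8322 in those of *At*BE3-YFP. The intron upstream of *matK* had 8936, 7777 and 7309 against 961, 1579 and 1293. The *matK* frame, which encodes the maturase, had 2797, 2513 and 2356 against 712, 909 and 747. In these 3 parts every *At*MKIP1-YFP library lay above every *At*BE3-YFP library, and the control varied most in exon 1. The intron downstream of *matK*, which ends in the 3′ splice site, had 4429, 4807 and 4419 against 419, 770 and 581. Exon 2, the 3′ portion of the tRNA, had 19409, 16999.9 and 14242 against 1401, 2801 and 3390.3. Here too the groups did not overlap. Such a separation was common, since 74.5% of all segments showed it with *At*MKIP1-YFP higher.

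On summed counts, exon 1 had a log2 fold change of 2.79, with a standard error (SE) of 0.23 from 3 pools of each bait. The value was 3.21 (SE 0.21) for the upstream intron, 1.98 (0.17) for *matK*, 3.44 (0.24) for the downstream intron and 3.06 (0.28) for exon 2. The largest adjusted p of the 5 parts was 3.6e-08 by edgeR over 49 annotated features, of which 44.9% were called higher. All 22 features called higher lay in genes with an intron listed as a MatK target, or were *rpl23* and *rps19* beside *rpl2*. The call of *matK* depended on the scaling. With TMM factors estimated on the 49 features all 5 parts were higher, with values from 1.57 for *matK* to 3.01 for the downstream intron. With the TMM factors of the segments, an alternative chosen after seeing the data, *matK* was at -0.16 (adjusted p = 0.36 by edgeR) and exon 1 at 0.65 (adjusted p = 0.014), neither of them called, whereas the upstream intron had 1.08, the downstream intron 1.31 and exon 2 0.93, all called higher. Scaled on the segments outside MatK target loci, *matK* had 2.60 (adjusted p = 5.0e-09 by edgeR). Summed counts weigh finely split stretches more. The sum for the downstream intron leaves out the segment with the *matK* stop codon, which holds the first bases of this part. With every overlapping segment counted, the downstream intron had 3.14. As length-weighted means of the segments, which carry no test, the upstream intron had 2.10 and the downstream intron 2.53, and *matK* had 1.62.

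**Figure D2:**
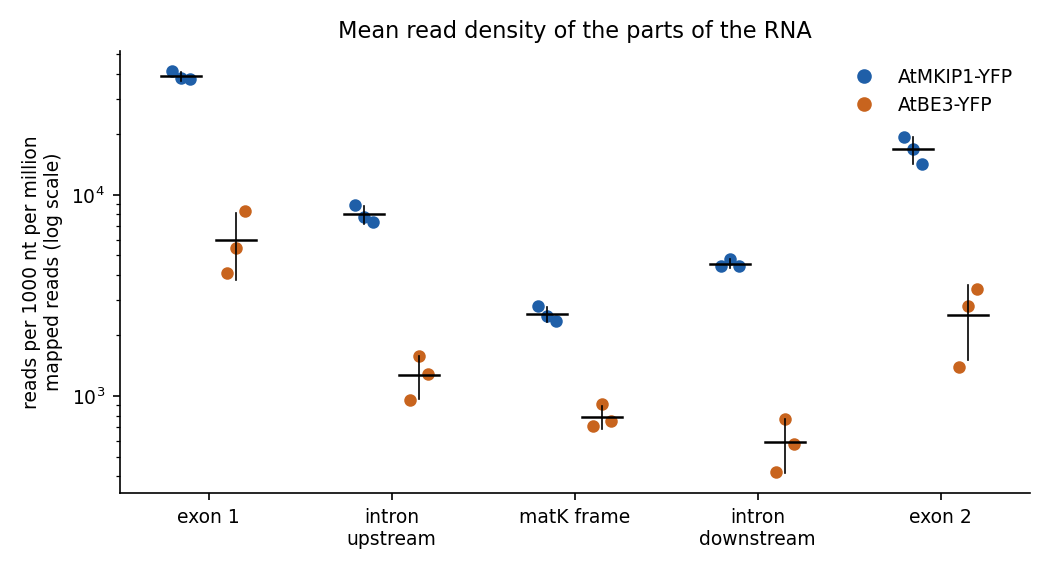
Mean read density (reads per 1000 nt per 1000000 mapped reads, log scale) of the 5 parts of the RNA. Points are libraries, the horizontal bars are the means and the vertical bars the SD of 3 pools. The baits were farthest apart in the intron downstream of *matK* and closest in the *matK* frame.

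The distribution of reads within the RNA also differed between the baits. The *matK* frame held 29.3% ± 0.102 (SD, n = 3) of the estimated reads of the RNA with *At*MKIP1-YFP and 45.9% ± 4.55 (SD, n = 3) with *At*BE3-YFP, and the upstream intron held 44.8% ± 0.952 and 35.7% ± 2.20. The log2 ratio of upstream to *matK* density within a library was 1.68, 1.63 and 1.63 for *At*MKIP1-YFP and 0.43, 0.80 and 0.79 for *At*BE3-YFP, a difference of 0.97. The ratio of downstream to *matK* density was 0.66, 0.94 and 0.91 against -0.77, -0.24 and -0.36, a difference of 1.29. Downstream of *matK* the density thus lay above that of *matK* in each *At*MKIP1-YFP library and below it in each *At*BE3-YFP library. The ratio of exon 1 to *matK* differed by 1.07 and that of exon 2 to *matK* by 1.12. For each of the 4 ratios the groups did not overlap. The two-sided exact permutation test gave p = 0.10 for each, also after Benjamini-Hochberg adjustment over the 4 ratios. This is the smallest p that 3 against 3 libraries allow, and ratios at other loci were not compared.

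Segments were also tested against the mean log2 fold change of the RNA with edgeR's diffSpliceDGE, adjusted over 461 segments of all annotated loci. This mean is taken over the segments and not over the nucleotides, so finely split stretches weigh more in it. Which segments lie above or below it therefore depends on how finely each stretch was split. Of the 76 members, 9 lay above the mean of the RNA and 18 below it, where 11.3% and 12.4% of all segments tested did so. The borders had been set on the same contrast between the baits. The p-values of diffSpliceDGE, also those given below for single segments, are therefore no independent evidence that the excess was uneven. All 9 above the mean were in the upstream intron. Of the 18 below it, 6 were in the upstream intron and 12 were assigned to *matK*, the last of which runs on into the downstream intron. None of the segments assigned to the exons or to the downstream intron passed this test in either direction, and 4 of the 10 downstream segments and 1 of the 2 of exon 2 had an unadjusted p under 0.05.

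**Figure D3:**
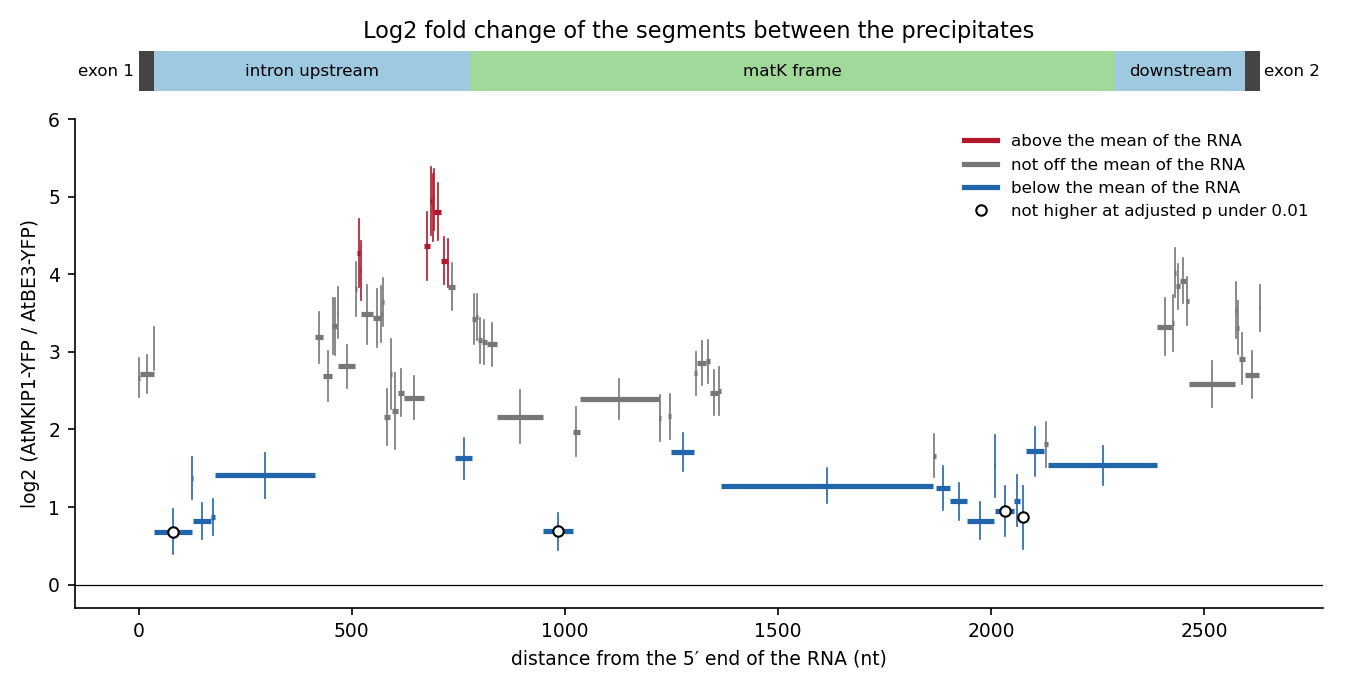
Log2 fold change between the precipitates (*At*MKIP1-YFP over *At*BE3-YFP, with bars of 1 standard error) of the 76 tested segments against the distance from the 5′ end of the RNA. Red segments lay above and blue segments below the mean of the RNA, and open circles mark the 4 segments that were not called higher. The red segments lie in the upstream intron at 514 to 523 nt and 671 to 727 nt from the 5′ end.

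At exon 1 the segment with the most counts, nt 4313 to 4344, had 2690, 2508 and 2466 CPM with *At*MKIP1-YFP and 274, 361 and 551 CPM with *At*BE3-YFP, a log2 fold change of 2.71 (SE 0.24, adjusted p = 1.6e-07 by edgeR). The last 2 nt of the exon, nt 4311 to 4312, had the highest value of the exon at 3.05 (0.27), and the 5′ end, nt 4345 to 4348, the lowest at 2.67 (0.25).

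At the 5′ splice site, where the first step of splicing frees exon 1 from the intron, the counts of *At*MKIP1-YFP fell sharply. The last 2 nt of exon 1 had 514, 706 and 575 reads with *At*MKIP1-YFP, and the adjoining first 88 nt of the intron, nt 4223 to 4310, had 29, 83 and 82. A read that crosses a border is counted on both sides, so at most 5.64%, 11.8% and 14.3% of the reads at the end of exon 1 ran on into the intron. With *At*BE3-YFP the counts were 27, 65 and 50 in the exon and 22, 41 and 17 in the intron, which allows up to 81.5%, 63.1% and 34.0% of reads to cross. The bounds of the baits did not overlap here, with *At*MKIP1-YFP lower. Bounds lay apart in either direction at 48.7% of the 78 borders, those at both ends of the RNA included. With *At*MKIP1-YFP lower they lay apart at 8 of the 78.

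The start of the intron was among the stretches with the smallest difference between the baits. The segment of nt 4223 to 4310 had 136, 260 and 306 CPM with *At*MKIP1-YFP and 137, 159 and 142 with *At*BE3-YFP, so that replicate 1 of *At*MKIP1-YFP lay within the range of the control. Its log2 fold change was 0.68 (SE 0.29, adjusted p = 0.040 by edgeR), and it lay 2.16 below the mean of the RNA on the log2 scale (adjusted p = 3.5e-09 by diffSpliceDGE). The next stretch, nt 4168 to 4220, held the densest intron segments of the control. The segment of nt 4168 to 4177 had the highest density of all 71 intron segments with *At*BE3-YFP, 5881 ± 770.1 (SD, n = 3), and ranked 25 with *At*MKIP1-YFP. Of the called segments upstream of *matK*, nt 4178 to 4220 had the smallest log2 fold change, 0.82 (0.24), and it lay 2.02 below the mean of the RNA on the log2 scale (adjusted p = 1.0e-08 by diffSpliceDGE). This segment was no longer called when *At*MKIP1-YFP replicate 2 or 3 or *At*BE3-YFP replicate 1 was left out, with a largest adjusted p of 0.037 by edgeR.

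Farther along the upstream intron the fold change rose in a series of runs. At nt 3916 to 3932 the log2 fold change was 3.19 (SE 0.33), up from 1.41 (0.29) in the segment before it, nt 3933 to 4167. At nt 3879 to 3882 the counts were 259, 297 and 214 with *At*MKIP1-YFP and 7, 28 and 12 with *At*BE3-YFP, and the log2 fold change was 3.51 (SE 0.33, adjusted p = 2.1e-07 by edgeR). The 8 nt just before this segment had only 52, 67 and 49 reads with *At*MKIP1-YFP, so at most 20.1% to 22.9% of the reads at nt 3882 began upstream of it.

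Upstream run 2 (nt 3773 to 3839, printed above) had log2 fold changes from 3.44 to 4.28 in its 7 segments. Its top segment, nt 3828 to 3834, had 1875, 1182 and 1108 CPM with *At*MKIP1-YFP and 31.1, 128 and 25.0 with *At*BE3-YFP, and lay 1.44 above the mean of the RNA (adjusted p = 0.00050 by diffSpliceDGE). The control was uneven here, with replicate 2 at least 4 times as high as the other two. Without *At*BE3-YFP replicate 2 the log2 fold change was 5.57 in place of 4.28. The run ended at nt 3773, where the counts fell from 261, 291 and 233 to 16, 39 and 27 in the next 16 nt. At most 6.13% to 13.4% of the reads crossed this border with *At*MKIP1-YFP and at most 25.0% to 33.3% with *At*BE3-YFP.

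Between upstream runs 2 and 3 the *At*MKIP1-YFP libraries themselves differed. At nt 3739 to 3753 the CPM were 56.2, 157 and 198 with *At*MKIP1-YFP and 37.4, 34.9 and 8.35 with *At*BE3-YFP, with replicate 1 of *At*MKIP1-YFP closest to the control. The log2 fold change of 2.23 had the largest standard error of all members, 0.49, and an adjusted p of 6.3e-04 by edgeR. In the runs on both sides replicate 1 was instead the highest of the *At*MKIP1-YFP libraries.

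Upstream run 3 (nt 3605 to 3677) held the largest log2 fold changes of the RNA, from 3.84 to 4.96 in 8 segments, of which 7 lay above the mean of the RNA. It ended 35 nt before the first base of *matK*. At its top, nt 3654 to 3655, the *At*MKIP1-YFP libraries had 1856, 1339 and 1201 CPM and the *At*BE3-YFP libraries 12.5, 54.3 and 75.1 CPM. The log2 fold change there was 4.96 (SE 0.39, adjusted p = 5.2e-08 by edgeR), which was 2.12 above the mean of the RNA (adjusted p = 2.4e-06 by diffSpliceDGE). Left-out libraries moved the value between 4.55 and 5.27. This segment was also the densest of the intron with *At*MKIP1-YFP, 36628 ± 8631 (SD, n = 3), and ranked 25 with *At*BE3-YFP. The segment with the most counts of the upstream intron, nt 3624 to 3637, had 410, 478 and 381 reads with *At*MKIP1-YFP and 9, 22 and 16 with *At*BE3-YFP.

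Run 3 broke off shortly before *matK*. The last segment of the run, nt 3605 to 3620, had 335, 373 and 294 reads with *At*MKIP1-YFP, and the next 40 nt, which hold the *matK* start codon, had 46, 60 and 57. At most 13.7%, 16.1% and 19.4% of the reads crossed this border. With *At*BE3-YFP there was little such drop, with 10, 22 and 15 reads before the border and 9, 15 and 11 after it, which allows 68.2% to 90.0% to cross. The segment with the start codon had a log2 fold change of 1.63 (SE 0.27, adjusted p = 5.2e-05 by edgeR) and lay 1.21 below the mean of the RNA (adjusted p = 0.0077 by diffSpliceDGE).

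Within *matK* the fold change was highest at the 5′ end of the frame. All 5 segments of the run of nt 3506 to 3564, which begins at codon 3 and ends in codon 22, had log2 fold changes from 3.10 to 3.45. The top segment, nt 3551 to 3555, had 516, 467 and 373 CPM with *At*MKIP1-YFP and 31.1, 46.6 and 41.7 with *At*BE3-YFP, a log2 fold change of 3.45 (SE 0.30, adjusted p = 1.0e-07 by edgeR). A lower maximum lay at nt 3008 to 3016 in codons 185 to 188, with 2.88 (0.28). Neither of these segments lay off the mean of the RNA in diffSpliceDGE.

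The rest of the frame was lower. The segment with the most counts, nt 2485 to 2981, covers codons 197 to 362 with 497 nt and had 764, 693 and 675 CPM with *At*MKIP1-YFP and 268, 311 and 301 with *At*BE3-YFP. Its log2 fold change was 1.27 (SE 0.23, adjusted p = 1.0e-04 by edgeR), 1.57 below the mean of the RNA. The smallest value of a called segment in *matK* was 0.83 (0.24, adjusted p = 0.0053 by edgeR) at nt 2341 to 2403, codons 390 to 410, and this call was lost without *At*BE3-YFP replicate 1 or any of the *At*MKIP1-YFP replicates.

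In *matK* 3 tested segments were not called higher. The segment of nt 3329 to 3399, codons 58 to 81, had 384, 345 and 276 CPM with *At*MKIP1-YFP and 212, 233 and 167 with *At*BE3-YFP, with groups that did not overlap and a log2 fold change of 0.69 (adjusted p = 0.015 by edgeR). The segments of nt 2293 to 2337 (0.95, adjusted p = 0.013) and nt 2265 to 2278 (0.86, adjusted p = 0.058) lie in codons 412 to 426 and 431 to 436. All 3 lay below the mean of the RNA. The segment of nt 3105 to 3122 had 13, 10 and 14 reads with *At*MKIP1-YFP and 2, 5 and 2 with *At*BE3-YFP, too few to be tested. With these, 148 nt of *matK* and 88 nt of the upstream intron lay in segments not called higher.

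The stop codon of *matK* lies in the segment of nt 1958 to 2213, which runs from codon 453 into the downstream intron. It had 422, 524 and 448 CPM with *At*MKIP1-YFP and 150, 198 and 117 with *At*BE3-YFP, a log2 fold change of 1.54 (SE 0.25, adjusted p = 5.4e-05 by edgeR). This was 1.30 below the mean of the RNA.

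The first bases downstream of *matK* lie in the segment with the stop codon, which was assigned to *matK* and was not over 4-fold higher. All 10 segments assigned to the part downstream of *matK* were over 4-fold higher. The top one, nt 1914 to 1917 in downstream run 1, had 623, 633 and 627 CPM with *At*MKIP1-YFP and 24.9, 54.3 and 25.0 with *At*BE3-YFP. Its log2 fold change was 4.02 (SE 0.31, adjusted p = 4.7e-08 by edgeR). Replicate 2 of *At*BE3-YFP was the highest of the control, and without it the value was 4.62. The smallest value was 2.58 (0.30) at nt 1776 to 1883, with 267, 376 and 317 CPM against 31.1, 66.0 and 58.4. Of the 304 nt downstream of *matK*, 67.8% lay in segments over 4-fold higher, against 44.3% upstream of *matK* and 27.9% in *matK*.

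At the 3′ splice site the counts rose again. The 14 nt that hold it, nt 1751 to 1764, had 281, 343 and 235 reads with *At*MKIP1-YFP and 11, 43 and 24 with *At*BE3-YFP, and a log2 fold change of 2.91 (SE 0.33, adjusted p = 1.3e-06 by edgeR). The 5 nt before them in the intron, nt 1765 to 1769, had 79, 83 and 62 reads with *At*MKIP1-YFP. In exon 2 the segment of nt 1718 to 1750 had 286, 376 and 265 reads with *At*MKIP1-YFP and 16, 51 and 29 with *At*BE3-YFP. Reads of exon 2 that reached back to nt 1769 were therefore at most 24.4% ± 2.90 (SD, n = 3) of its reads with *At*MKIP1-YFP and 18.0% ± 6.65 (SD, n = 3) with *At*BE3-YFP.

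The log2 fold change in exon 2 was 2.71 (SE 0.30) at nt 1718 to 1750 and 3.57 (0.30) at nt 1716 to 1717, which hold its last base. The reads were mapped with introns of at most 1200 nt allowed, and the *trnK* intron has 2559 nt, so that a read over the joined exons could not be aligned across it. Exon reads from the spliced tRNA, from the precursor and from cut pieces therefore cannot be told apart.

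Over the RNA, 13 borders between segments of at most 100 nt had counts that changed at least 2-fold in the same direction in each *At*MKIP1-YFP library, 7 as a rise and 6 as a fall in the 5′ to 3′ direction. At 8 of them each *At*BE3-YFP library changed at least 2-fold in that direction as well. The borders at the 5′ splice site and before *matK* were 2 of the other 5. The 13 borders were picked by their change with *At*MKIP1-YFP, and the bounds of the baits did not overlap at 7 of them, against 38 of all 78 borders, so this separation is a description and carries no test.

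**Figure D4:**
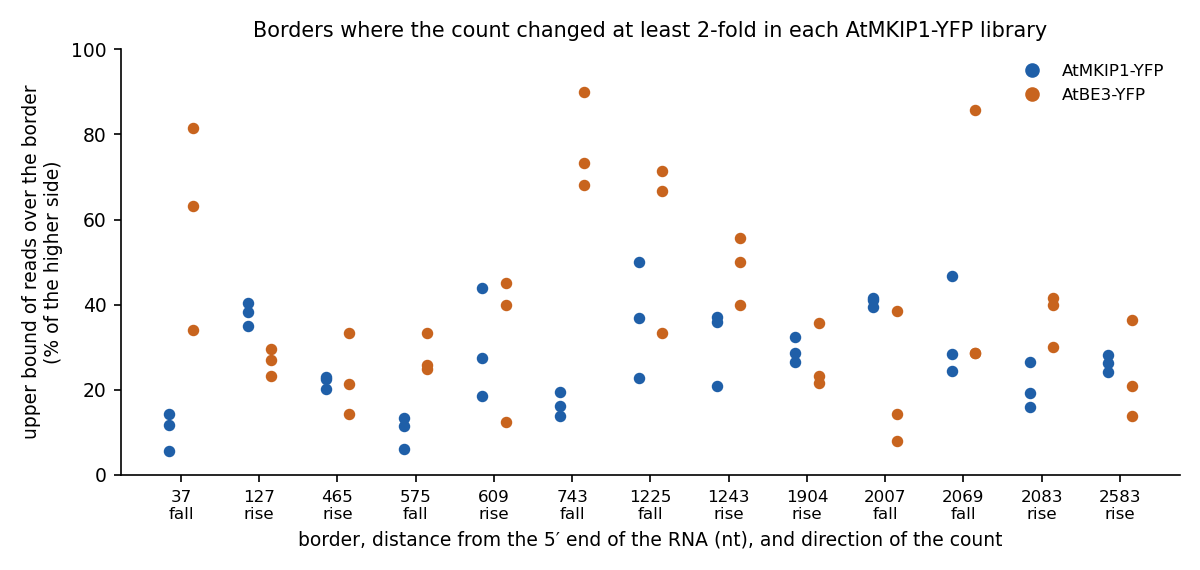
Upper bound of the share of reads that cross a border (percent of the count on the higher side) at the 13 borders, ordered by distance from the 5′ end of the RNA, with 1 point per library. At 37 nt (5′ splice site) and 743 nt (before *matK*) the bounds were 5.64% to 19.4% with *At*MKIP1-YFP and 34.0% to 90.0% with *At*BE3-YFP.

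The excess of *At*MKIP1-YFP ended at both ends of the RNA. Just downstream of exon 2, nt 1513 to 1715 had 391, 682 and 630 reads with *At*MKIP1-YFP and 535, 845 and 433 with *At*BE3-YFP, and just upstream of exon 1, nt 4349 to 9967 had 761, 1192 and 894 against 882, 1498 and 757. Their log2 fold changes were -0.69 (SE 0.17, adjusted p = 0.0018) and -0.73 (0.17, adjusted p = 8.6e-04) by edgeR. The call of the downstream segment was lost without *At*MKIP1-YFP replicate 1 or 2, and when libraries were scaled on the segments that lie outside MatK target loci, both values were near 0, at -0.08 and -0.12. They lay farther below 0, at -1.41 and -1.45, with summed counts as library sizes, and at -2.85 and -2.89 with TMM factors of the segments. On the opposite strand the whole locus lay in 1 segment, nt 118 to 6954, with 78, 96 and 82 reads against 76, 147 and 65, a read density of 47.1 ± 5.23 (SD, n = 3) with *At*MKIP1-YFP, where the *trnK* RNA had 5021 ± 423 (SD, n = 3).

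Among the other introns listed as MatK targets, 5 of 6 passed as higher in the same fit, from 1.15 in *trnV-UAC* to 3.50 in *trnA-UGC*, and *rps12* intron 2 had 0.31 (adjusted p = 0.24 by edgeR). The upstream and downstream parts of the *trnK* intron lay within the range of these introns. Of the introns listed as no targets only that of *ndhA* had a segment of its own, with a log2 fold change of -1.11 (adjusted p = 0.0033). The downstream neighbour *psbA*, which encodes the D1 protein of photosystem II, had -0.93 (adjusted p = 2.0e-04). The upstream neighbour *rps16*, which the authors call a pseudogene in Arabidopsis, had no segment of its own.

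In the input the locus could not be resolved, since 1 segment of 5822 nt (nt 807 to 6628) covers *trnK*, most of *psbA* and the sequence upstream. It had 106516, 143388 and 158483 reads in the *At*MKIP1-YFP inputs and 147225, 112524 and 136155 in those of *At*BE3-YFP, and the groups overlapped. The log2 fold change was -0.01 (SE 0.10, adjusted p = 0.97 by edgeR over 572 input segments, of which 10 were called and 91 had an unadjusted p under 0.05). The level of the *trnK* precursor itself in the lines is thus not measured. Over this stretch the difference of the baits in the precipitate less that in the input was -0.44 (0.18, adjusted p = 0.030 in edgeR's interaction test). This fit did not pair precipitates with inputs. With each precipitate paired with the same-numbered input of its line, the value was -0.445 (adjusted p = 0.070 in the same test). The *trnK* segments made up only 16.4% of the precipitate counts in this stretch.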

How the data were processed

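Reads were adapter-trimmed and size-selected (18 to 60 nt) by the authors with Cutadapt, aligned by STAR against the chloroplast sequence of TAIR10 lacking the second inverted repeat, and deduplicated through 8-nt molecular identifiers with UMI-tools. Tool versions are not given in the sources used here. DiffSegR set the segment borders. The deposited counts are whole reads per segment and strand, and the authors' mapped reads per library served as library sizes. The methods describe fragmentation and ribosomal RNA depletion for the input RNA only. Columns with the authors' own fold changes and p-values were not used.

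Counts were tested by edgeR's quasi-likelihood method (version 4.0.16, under R 4.3.3; bait as the only term, Benjamini-Hochberg, adjusted p under 0.01) after a filter on low counts. Parts of the RNA were tested on summed counts of segments at least 50% inside. Position was tested with diffSpliceDGE, ratios with exact permutation tests (scipy 1.17.1). DESeq2 1.42.0 was an alternative, with other scalings, read lengths of 18 and 60 nt, and left-out libraries. Scripts were tested on simulated data. Named were, in each part, the called segments with the highest and lowest log2 fold change and the one with most counts, those with splice sites, start and stop, and those next outside the RNA. The members, the lists of introns and neighbours, and this rule were chosen with earlier results of these data known. The runs and borders were chosen after the values were seen. Replicates are pools of seedlings, and p-values measure the spread between these. The library names of the *At*MKIP1-YFP samples carry an older name of the protein, BE1.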

Additional observations from a re-analysis of the deposited data

How the results depend on the processing

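All 5 parts of the RNA kept their direction and their call under every alternative with a test but one kind, factors estimated on the segments and applied to the parts, which was chosen after seeing the data. With such TMM factors *matK* turned to -0.16 and exon 1 lost its call at 0.65, and with such DESeq2 size factors *matK* lost its call at 0.017, while the other parts stayed higher. Both factors set the bulk of the segments to no change, and many of these segments lie in the finely split MatK target loci. Scaled on the segments outside these loci, all 5 parts were called higher and *matK* had 2.60. As length-weighted means, which have no test, the upstream intron had 2.10, *matK* 1.62, the downstream intron 2.53 and exon 2 2.74. The count of members called higher was 29 with TMM and 34 with DESeq2 and its own size factors, and 67 to 74 without 1 library. Segments off the mean of the RNA numbered 18 to 25 without 1 library. Upstream against *matK* was 1.25 from sums of counts. The precipitate excess over input was -1.16 when summed counts served as library sizes, past the threshold, and -0.61 to -0.34 without 1 library, past the threshold without *At*MKIP1-YFP replicate 1 (-0.61). The causes of these shifts were not tested.

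Same-numbered libraries did not deviate together in the precipitates (Pearson's r of their deviations over 553 segments -0.12, 0.13 and -0.14, and 2 of 6 libraries were closest to their own number). The numbers were therefore treated as names only, although 3 pools are too few to exclude that same-numbered libraries were handled together. With the replicate block 70 members were higher, 20 segments lay off the mean of the RNA, and the parts had 2.83, 3.23, 1.99, 3.49 and 3.09 from exon 1 to exon 2. The block changed the call of no part. Depth limits the control most, since single *At*BE3-YFP libraries had as few as 1 read in a segment of upstream run 3. Reads over borders enter several segments, so the standard errors of neighbouring segments are not independent.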
